A study of Mus musculus with 4 samples.

Results

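The eicosanoid genes described here are Ltc4s, Alox5ap, Alox5, Ptgs2 and Ptges, 5 of the 22631 gene rows in each of 2 single-cell count matrices. They were taken by name, because together they encode the core steps from arachidonic acid to cysteinyl leukotrienes and to prostaglandin E2. The levels were read in migratory dendritic cells (DCs), the cells that carry skin antigen through lymph vessels to the draining lymph node. Transcripts of Ltc4s and Ptgs2 were measurable in these DCs, and those of Alox5ap stood clear of the level in lymphocyte barcodes in a single population only. Alox5 and Ptges were at or near 0 in each population.

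Leukotrienes start from arachidonic acid, which cytosolic phospholipase A2 frees from membranes. The lipoxygenase encoded by Alox5 oxidises it with the help of FLAP, the membrane protein encoded by Alox5ap, and leukotriene C4 synthase, encoded by Ltc4s, then joins the product to glutathione. Cyclooxygenase 2, the inducible enzyme encoded by Ptgs2, opens the prostaglandin branch, and microsomal prostaglandin E synthase 1, encoded by Ptges, completes prostaglandin E2. Both branches act in skin inflammation and in DC migration to lymph nodes, with leukotriene C4 and prostaglandin E2 known as promoters of responses to the CCR7 ligands.

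The cells came from ear-draining lymph nodes of Tnfsf4KI/+ mice, whose OX40L gene carries a blue fluorescent protein (BFP) reporter, an allele that all groups shared. Ears received MC903, a vitamin D analog known to induce TSLP in keratinocytes, on days 0, 2 and 4, or nothing, with harvest on day 5. The B220− CD11cint MHCIIhi gate gave 5000 BFP+ and 7000 BFP− cells per treatment, which were tagged with hashtag antibodies and captured together, so the 4 populations are MC903 BFP+, MC903 BFP−, untreated BFP+ and untreated BFP−. Each population is 1 pool of unstated mouse number and age, the treatments were separate captures on separate sequencing lanes, and treatment and capture cannot be told apart.

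After filtering, 5636 MC903 and 8422 untreated barcodes remained, of which 5466 and 6313 were assigned to a population by hashtag. DCs, gated on at least 2 of 8 DC markers and on fewer than 2 markers of each of 8 other lineage lists, numbered 1357 in MC903 BFP+, 2994 in MC903 BFP−, 404 in untreated BFP+ and 3610 in untreated BFP−, with medians of 10098, 9520, 5243 and 2636 UMIs (unique transcript molecules) per barcode. The BFP transcript was at 108, 9.94, 79.6 and 6.19 CPM (UMIs per 1000000 UMIs) in those populations in that order, and Tnfsf4, the OX40L gene, at 33.6, 4.57, 29.2 and 4.27 CPM. Fscn1 lay between 1875 and 2545 CPM and Ccr7 between 2469 and 2745 CPM. Both are known genes of migratory DCs, but both are among the 8 markers of the DC gate, so their presence was set by the gate. Itgax, the CD11c gene, which is not among those markers, was at 4.61 to 30.7 CPM. The 2 captures shared 23 cell barcodes. Markers of other lineages remained in the DC sums: the 10 T cell markers summed to 15.2, 15.2, 35.2 and 62.5 CPM, the 8 B cell markers to 19.3, 14.2, 22.2 and 46.3 CPM, and the 7 monocyte or macrophage markers to 8.04, 19.2, 17.8 and 31.9 CPM, in MC903 BFP+, MC903 BFP−, untreated BFP+ and untreated BFP− DCs. Untreated BFP− DCs were thus the shallowest and held the highest sums of those 3 lists, and the part of these differences in the results below was not tested. There is no replicate check for any difference, so no p-value is given. Intervals are exact 95% intervals of the counts and cover counting error only.

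The promoters of the 2 members with the most UMIs are shown because those transcripts differed between the populations in the same direction. RefSeq promoter windows (GRCm38.p6, 250 bases before to 50 after the start) were held for 4 of the 5 members, with no entry for Alox5ap. Capitals mark matches on either strand to GGGCGG (GC box), TGACG (part of a cyclic AMP response element), CACGTG (E-box) and an NF-kB-like motif (3 G, any 5 bases, 2 C). TTCNNNGAA (resembling a STAT site), AGGTCA and AGTTCA (each 1 arm of a vitamin D receptor element) and TATAAA were also searched.
Ltc4s, chr11:50238483-50238782, minus strand: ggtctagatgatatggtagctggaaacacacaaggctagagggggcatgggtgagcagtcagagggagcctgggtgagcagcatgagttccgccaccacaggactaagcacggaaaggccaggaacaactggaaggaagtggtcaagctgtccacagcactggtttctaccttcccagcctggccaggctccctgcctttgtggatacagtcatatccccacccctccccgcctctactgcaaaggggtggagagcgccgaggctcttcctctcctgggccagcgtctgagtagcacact
Ptgs2, chr1:150099781-150100080, plus strand: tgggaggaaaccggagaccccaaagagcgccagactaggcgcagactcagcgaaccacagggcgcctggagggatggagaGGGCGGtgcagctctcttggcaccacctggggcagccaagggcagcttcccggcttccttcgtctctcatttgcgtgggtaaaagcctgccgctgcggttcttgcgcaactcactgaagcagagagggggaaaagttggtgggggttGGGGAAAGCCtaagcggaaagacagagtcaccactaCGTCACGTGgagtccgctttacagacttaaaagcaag
The Ltc4s window held no match to the 8 motifs. The Ptgs2 window held 1 match each to the GC box, the NF-kB-like motif, the cyclic AMP motif and the E-box, the last 2 overlapping, and none to the other 4. Among 32851 mouse promoter windows of that length, GGGCGG was in 35.7%, TGACG in 20.8%, CACGTG in 7.15%, the NF-kB-like motif in 50.8%, TTCNNNGAA in 8.30%, AGGTCA in 16.3%, AGTTCA in 14.0% and TATAAA in 13.6%. A match is a match of letters and not a measured site.

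**Figure D1:**
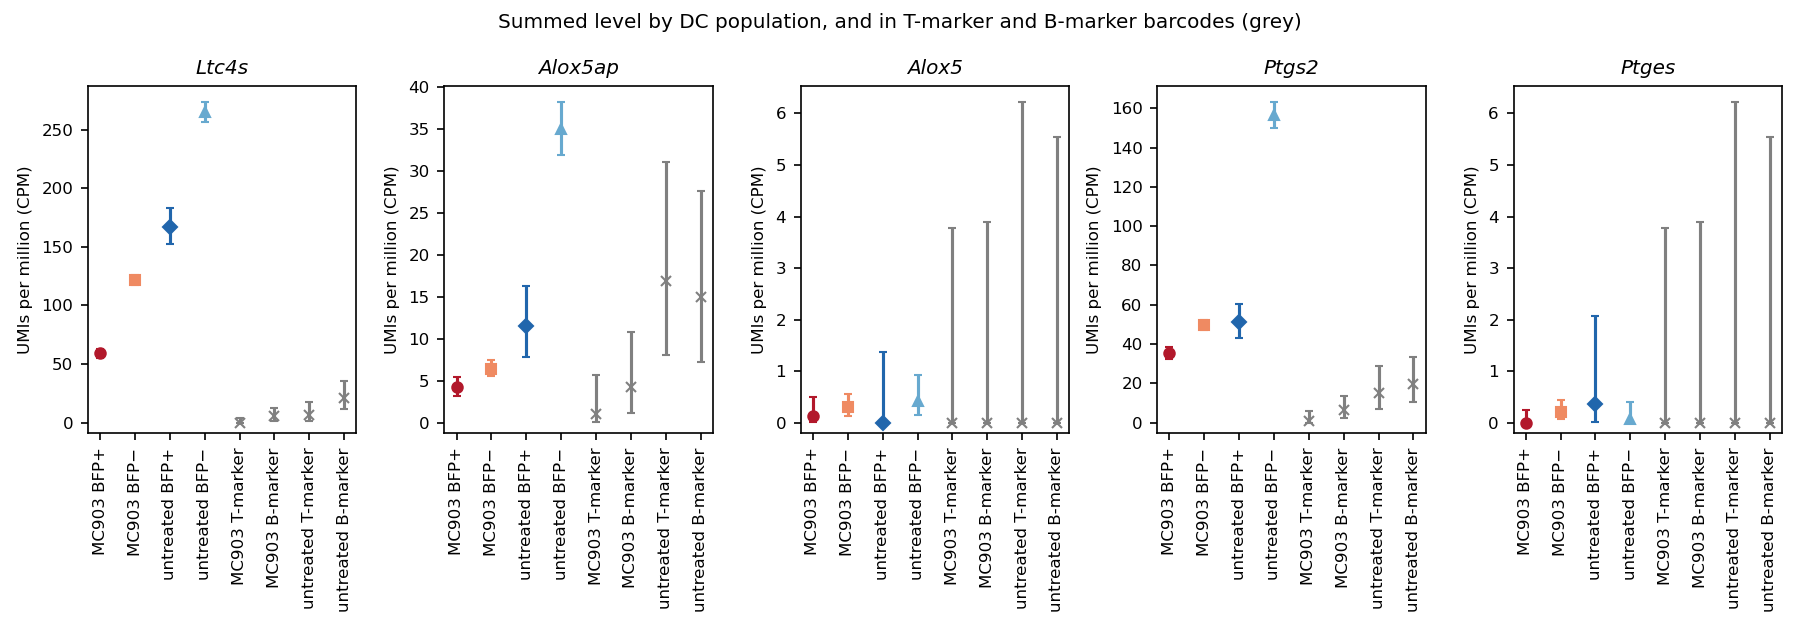
Summed level of each gene in CPM (y axis, a separate scale per panel) in DCs of the 4 populations (coloured) and in T-marker and B-marker barcodes of both captures (grey crosses), with exact 95% counting intervals. Ltc4s was lowest in MC903 BFP+ DCs (59.1 CPM) and highest in untreated BFP− DCs (265 CPM), and Alox5 and Ptges stayed under 1 CPM in DCs.

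Ltc4s (ENSMUSG00000020377, GRCm38 chromosome 11, 50236461 to 50238616, minus strand), the leukotriene C4 synthase gene, had 859 UMIs in MC903 BFP+ DCs, 3673 in MC903 BFP−, 452 in untreated BFP+ and 3723 in untreated BFP−. These are 59.1, 122, 167 and 265 CPM in that order, and no 2 of the 4 counting intervals overlapped (55.2 to 63.1, 118 to 126, 152 to 183 and 256 to 273 CPM). The level was therefore lowest where the reporter and the treatment came together and highest where both were absent. After thinning every barcode to 2000 UMIs, a Ltc4s UMI was found in 9.51%, 18.8%, 27.1% and 37.4% of DCs, against 25.6%, 42.7%, 39.9% and 46.7% before thinning, which left out 11, 35, 43 and 669 shallower DCs. T-marker barcodes held no Ltc4s UMI after MC903 and 4 UMIs (6.75 CPM) without treatment, and B-marker barcodes held 5.29 CPM after MC903 and 21.0 CPM without it, so the DC level lay above that in lymphocyte barcodes of its own capture in each population. The thinned share with a Ltc4s UMI was 0% of T-marker and 1.16% of B-marker barcodes after MC903 and 0.935% and 3.73% without treatment, at medians of 4583, 3079, 3314 and 3034 UMIs.

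Alox5ap (ENSMUSG00000060063, chromosome 5, 149264767 to 149288153, plus strand), the FLAP gene, had 61 UMIs in MC903 BFP+, 194 in MC903 BFP−, 31 in untreated BFP+ and 491 in untreated BFP− DCs. The levels were 4.19, 6.43, 11.5 and 34.9 CPM, in the same order as those of Ltc4s and with intervals that did not overlap. Only the untreated BFP− level stood clear of lymphocyte barcodes, in which Alox5ap was at 1.03 CPM (T-marker) and 4.23 CPM (B-marker) after MC903 and at 16.9 and 15.0 CPM without treatment. At 2000 UMIs per barcode, 0.594%, 1.01%, 2.77% and 5.51% of DCs had an Alox5ap UMI, against 0% of T-marker and 0.775% of B-marker barcodes after MC903 and 0.935% and 1.49% without treatment.

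Alox5 (ENSMUSG00000025701, chromosome 6, 116410077 to 116461178, minus strand), the 5-lipoxygenase gene, had 2, 9, 0 and 6 UMIs in MC903 BFP+, MC903 BFP−, untreated BFP+ and untreated BFP− DCs. The highest level was 0.427 CPM, and the 0 in untreated BFP+ DCs has an exact upper bound of 1.37 CPM (the floor of 3 counts is 1.11 CPM). No direction between populations can be read from these counts. The untreated barcodes left out for monocyte or macrophage markers held 10 Alox5 UMIs in 314 barcodes (8.22 CPM, interval 3.94 to 15.1), above the untreated BFP− DC interval of 0.157 to 0.929 CPM.

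Ptgs2 (ENSMUSG00000032487, chromosome 1, 150100031 to 150108227, plus strand), the cyclooxygenase 2 gene, had 514 UMIs in MC903 BFP+, 1494 in MC903 BFP−, 138 in untreated BFP+ and 2200 in untreated BFP− DCs. These are 35.3, 49.5, 51.1 and 156 CPM. Untreated BFP− DCs stood apart, MC903 BFP+ DCs were lowest, and the intervals of MC903 BFP− (47.0 to 52.1 CPM) and untreated BFP+ DCs (42.9 to 60.3 CPM) overlapped. The thinned shares were 4.75%, 5.71%, 6.65% and 15.6% of DCs, against 13.9%, 12.9%, 13.9% and 19.2% before thinning. Lymphocyte barcodes held 1.03 CPM (T-marker) and 6.35 CPM (B-marker) after MC903 and 15.2 and 19.5 CPM without treatment, below the DC level of the same capture. Their thinned shares were 0.585%, 0%, 3.74% and 2.99% in the same order, so the untreated BFP+ DC share of 6.65% (4.31 to 9.73) is near the lymphocyte one. The untreated barcodes left out for neutrophil or eosinophil markers had 635 CPM of Ptgs2 in 58 barcodes, and the 10 markers of that list summed to 5.05 CPM in untreated BFP− DCs. Their part in the Ptgs2 level was not tested. Ptges (ENSMUSG00000050737, chromosome 2, 30889471 to 30929863, minus strand), the inducible prostaglandin E synthase gene, had 0, 6, 1 and 1 UMIs. The 0 in MC903 BFP+ DCs has an exact upper bound of 0.254 CPM.

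Between BFP+ and BFP− DCs after MC903, the sort addresses how OX40L-reporter cells differ from their neighbours. Ltc4s was 2.06-fold lower in BFP+ DCs (log2 ratio −1.04, interval −1.15 to −0.94). Ptgs2 was lower by a smaller amount (−0.49, −0.63 to −0.34), close to 1.5-fold and just past it with HTODemux hashtag calls or thinned barcodes (−0.59 each), and Alox5ap, near the lymphocyte level in both, had −0.62 (−1.06 to −0.19). Of the 2 members with at least 20 CPM in the higher population, 1 was at least 1.5-fold lower, against 1.78% of all 4781 genes past that minimum. None was 1.5-fold higher, against 1.36% of all genes.

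Without treatment, Ltc4s was 1.58-fold lower in BFP+ than in BFP− DCs (log2 ratio −0.66, −0.81 to −0.52). Ptgs2 was 3.06-fold lower (−1.62, −1.87 to −1.37) and Alox5ap 3.04-fold lower (−1.61, −2.18 to −1.08). All 3 members with 20 CPM were at least 1.5-fold lower, against 4.2% of 5019 genes, and none was higher, against 3.33%. Ltc4s fell short of 1.5-fold, and the count became 2, with HTODemux hashtag calls (log2 ratio −0.52), without the 5% deepest barcodes (−0.51), in thinned barcodes (−0.42) and as a mean over cells (−0.45). With HTODemux calls the log2 ratio was −1.20 for Ptgs2 and −0.79 for Alox5ap. Alox5ap reached the minimum through the untreated BFP− population alone, here and in the treatment contrast of BFP− cells, so its place in those counts was set by where it was high. The reporter differences of the 2 captures were not tested against each other.

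MC903 and untreated DCs were compared within each sort. Among BFP+ DCs, Ltc4s was 2.83-fold lower after MC903 (log2 ratio between −1.67 and −1.33), Ptgs2 had −0.53 (−0.80 to −0.25, but −1.12 with HTODemux calls) and Alox5ap −1.45 (−2.10 to −0.78). In both BFP+ populations the pooled Alox5ap level was no higher than in B-marker barcodes of the same capture. Those were also lower after MC903 (4.23 against 15.0 CPM), from 4 and 10 UMIs with overlapping intervals (1.15 to 10.8 and 7.20 to 27.6 CPM). Single BFP+ DC barcodes held up to 10 Alox5ap UMIs after MC903 and 5 without treatment, against at most 1 and 2 in B-marker barcodes. The part of background in the Alox5ap ratio of BFP+ DCs was not tested. One of 2 members past 20 CPM was 1.5-fold lower, against 4.59% of 4903 genes, and 0 were higher, against 3.43%. Among BFP− DCs, Ltc4s was 2.18-fold lower after MC903 (−1.12, −1.19 to −1.05), Ptgs2 3.16-fold lower (−1.66, −1.76 to −1.56) and Alox5ap 5.43-fold lower (−2.44, −2.69 to −2.20). All 3 were past 1.5-fold, against 5.34% of 5002 genes lower and 4.88% higher. Of all genes past 1.5-fold, 42.6% were higher after MC903 in BFP+ and 47.5% in BFP− DCs, but with TMM scaling 64.7% and 64.3%, while each of the 3 members stayed lower under both scalings tried. The 4 contrasts share populations and are not independent of each other.

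**Figure D2:**
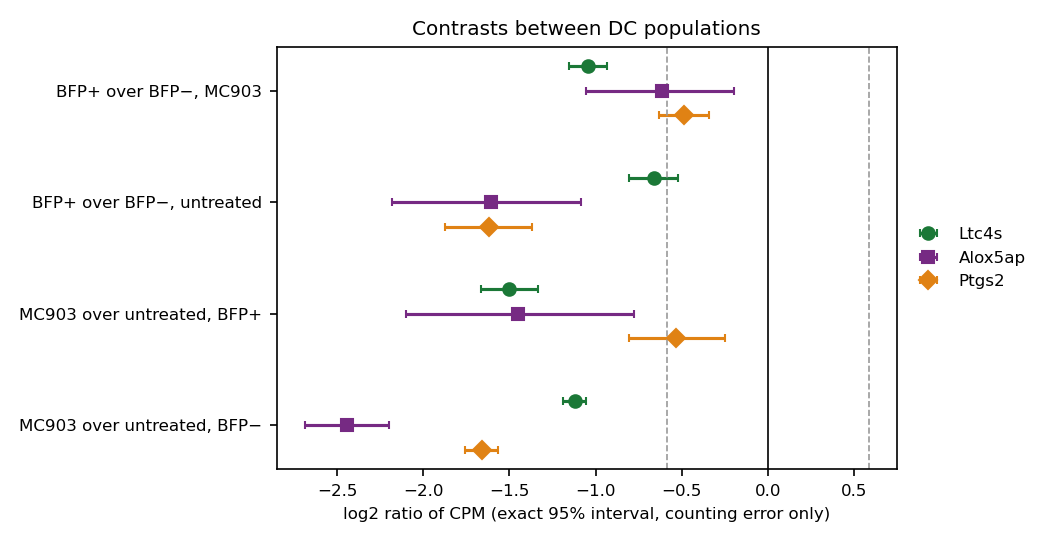
Log2 ratio of CPM (x axis) for Ltc4s, Alox5ap and Ptgs2 in the 4 contrasts (rows), with exact 95% counting intervals. The solid line is 0 and the dashed lines mark 1.5-fold. The 12 ratios lie below 0, with Ptgs2 short of 1.5-fold for BFP+ over BFP− after MC903 (−0.49) and for MC903 over untreated in BFP+ DCs (−0.53).

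DC types were gated on marker genes, none of them a member. The lineage gates were Epcam/Cd207 (Langerhans cell markers), Xcr1/Clec9a (less mature cDC1), Apol10b/Laptm4b (mature cDC1) and Cd209a/Mgl2 (cDC2), and DCs in none of them were sorted into 5 gates on pairs or trios of genes. DCs that met none of the 9 lists are called ungated, and those that met several of the 4 lineage lists or several of the 5 gene-pair lists form 2 mixed sets. The Xcr1/Clec9a gate of untreated BFP− DCs held 959 CPM of Irf8 and 393 CPM of Wdfy4, both cDC1 genes outside the gate, and the Epcam/Cd207 gate 852 CPM of Mfge8. In untreated BFP− DCs the Apol10b/Laptm4b gate held 466 CPM of Irf8, against 293 CPM in ungated DCs. The other cDC1 check genes were lower there than in ungated DCs: Wdfy4 (7.96 against 22.1 CPM), Naaa (6.90 against 22.2 CPM) and Snx22 (0 against 1.05 CPM). The Apol10b/Laptm4b gate is therefore also called by its markers. The Cd209a/Mgl2 gate held 140 CPM of Sirpa and 297 CPM of Klf4 but also 155 CPM of Wdfy4, against 22.1 CPM of Wdfy4 in ungated DCs, so it is called by its markers. Gates need detected genes, so deeper barcodes enter them more easily, and gate sizes are not compared.

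Alox5ap had its highest gate levels in the Cd209a/Mgl2 and Xcr1/Clec9a gates. In untreated BFP− DCs it was at 231 CPM in the Cd209a/Mgl2 gate (184 cells, 153 UMIs) against 25.2 CPM in the other DCs, a log2 ratio of 3.19 (2.91 to 3.47). That gate held 31.2% of the population's Alox5ap UMIs, ungated DCs 35.4% and DCs of several lineage lists (41 cells at 143 CPM) 11.4%. The Xcr1/Clec9a gate, with only 32 cells, had 214 CPM. In MC903 BFP− DCs the Cd209a/Mgl2 gate, with 33 cells, had 139 CPM (109 to 175) against 4.08 CPM in the others, and held 37.6% of the UMIs. In the other gates and sets of at least 50 cells Alox5ap stayed at or under 30.5 CPM, a level found in the Epcam/Cd207 gate and among ungated DCs of the untreated BFP− population. The Apol10b/Laptm4b gate of mature cDC1 markers had 2.73, 3.80 and 6.90 CPM in MC903 BFP+, MC903 BFP− and untreated BFP− DCs.

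By number of Cd209a/Mgl2-list markers, Alox5ap in untreated BFP− DCs was at 16.9 CPM with none of the 4 markers, 119 CPM with 1, 179 CPM with 2 and 276 CPM with 3 or more, at medians of 2631, 2614, 2728 and 2996 UMIs. MC903 BFP− DCs had 3.56 CPM with none, 2.05 CPM with 1 and 196 CPM with 3 or more (22 cells), and MC903 BFP+ DCs 3.32 CPM with none and 1.52 CPM with 1. In untreated BFP− DCs the level also went up with 0, 1 and 2 markers of the Epcam/Cd207 list (26.5, 59.3 and 91.1 CPM) and of the Xcr1/Clec9a list (29.2, 52.1 and 90.03 CPM). These counts of markers include barcodes that meet another lineage list. All 71 DCs with 2 Epcam/Cd207 markers held 49 Alox5ap UMIs. The Epcam/Cd207 gate, which leaves out barcodes of several lineage lists, held 11 UMIs in 57 cells (30.5 CPM), and the latter barcodes were at 143 CPM. The Cd209a/Mgl2 gate of untreated BFP− DCs held 1059 CPM each of Ccr7 and Fscn1, against 2469 and 2003 CPM in the whole population. The 7 monocyte or macrophage markers summed to 31.7 CPM in that gate, with C1qa and Fcgr1 at 0, against 31.9 CPM in all untreated BFP− DCs. Its 5 plasmacytoid DC markers summed to 92.0 CPM, with Cox6a2, Klk1 and Pacsin1 at 0, against 11.5 CPM, and its 7 stroma or keratinocyte markers to 72.4 CPM, with Col1a1, Col3a1 and Lyve1 at 0, against 13.0 CPM. The part of those markers in the Alox5ap level was not tested. Barcodes left out of the DC gate for plasmacytoid DC markers had 198 CPM of Alox5ap after MC903 (17 barcodes) and 248 CPM without treatment (30 barcodes), and those left out for monocyte or macrophage markers 80.7 CPM (128 barcodes) and 103 CPM (314 barcodes).

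Ltc4s went the other way in the Cd209a/Mgl2 gate. In untreated BFP− DCs the Cd209a/Mgl2 gate had 129.7 CPM against 272 CPM in the other DCs, a log2 ratio of −1.07 (−1.39 to −0.76), and in MC903 BFP− DCs it had 3 UMIs in 33 cells, or 5.71 CPM (1.18 to 16.7). With 3 or more of the markers the untreated BFP− level was 86.0 CPM, against 280 CPM with none. At 2000 UMIs per barcode, 25.3% of untreated BFP− DCs with an Alox5ap UMI also had a Ltc4s UMI (41 of 162, interval 18.8 to 32.7), against 38.1% (36.3 to 39.9) of those without Alox5ap. Ltc4s was thus found in a smaller share of the cells with Alox5ap than of those without it, with intervals that did not overlap. In the other 3 populations 8 to 30 thinned DCs had Alox5ap, too few to compare.

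Ltc4s was high in the Cxcl1/Clu/Ehf gate, named for a neutrophil chemokine, clusterin and an epithelial ETS factor. It had 284 CPM there in MC903 BFP− DCs (71 cells), 410.1 CPM in untreated BFP+ DCs (only 42 cells) and 327 CPM in untreated BFP− DCs (640 cells), against 118, 140.5 and 252 CPM in the other DCs of those populations. The log2 ratios were 1.27 (1.06 to 1.48), 1.55 (1.22 to 1.86) and 0.38 (0.26 to 0.49). In untreated BFP− DCs Ltc4s was near the same level in the Efnb2/Slamf1 (317 CPM) and Sned1/Myb/Sox4 gates (301.1 CPM) and in DCs of several gene-pair lists (344 CPM). Among gates of at least 50 cells in the MC903 populations it was lowest in Tesc/Tubb2b, with 16.2 CPM in MC903 BFP+ (210 cells) and 32.3 CPM in MC903 BFP− DCs (188 cells), which set against the other DCs gave log2 ratios of −2.05 (−2.57 to −1.58) and −1.98 (−2.37 to −1.63). The small Thy1/Dll4 gate had 10.4 CPM in 20 MC903 BFP+ cells and 23.3 CPM in 30 MC903 BFP− cells. Across gates, ungated DCs and mixed sets of at least 50 cells Ltc4s spanned 16.2 to 128 CPM in MC903 BFP+, 32.3 to 284 in MC903 BFP−, 61.6 to 164 in untreated BFP+ and 129.7 to 344 in untreated BFP− DCs.

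**Figure D3:**
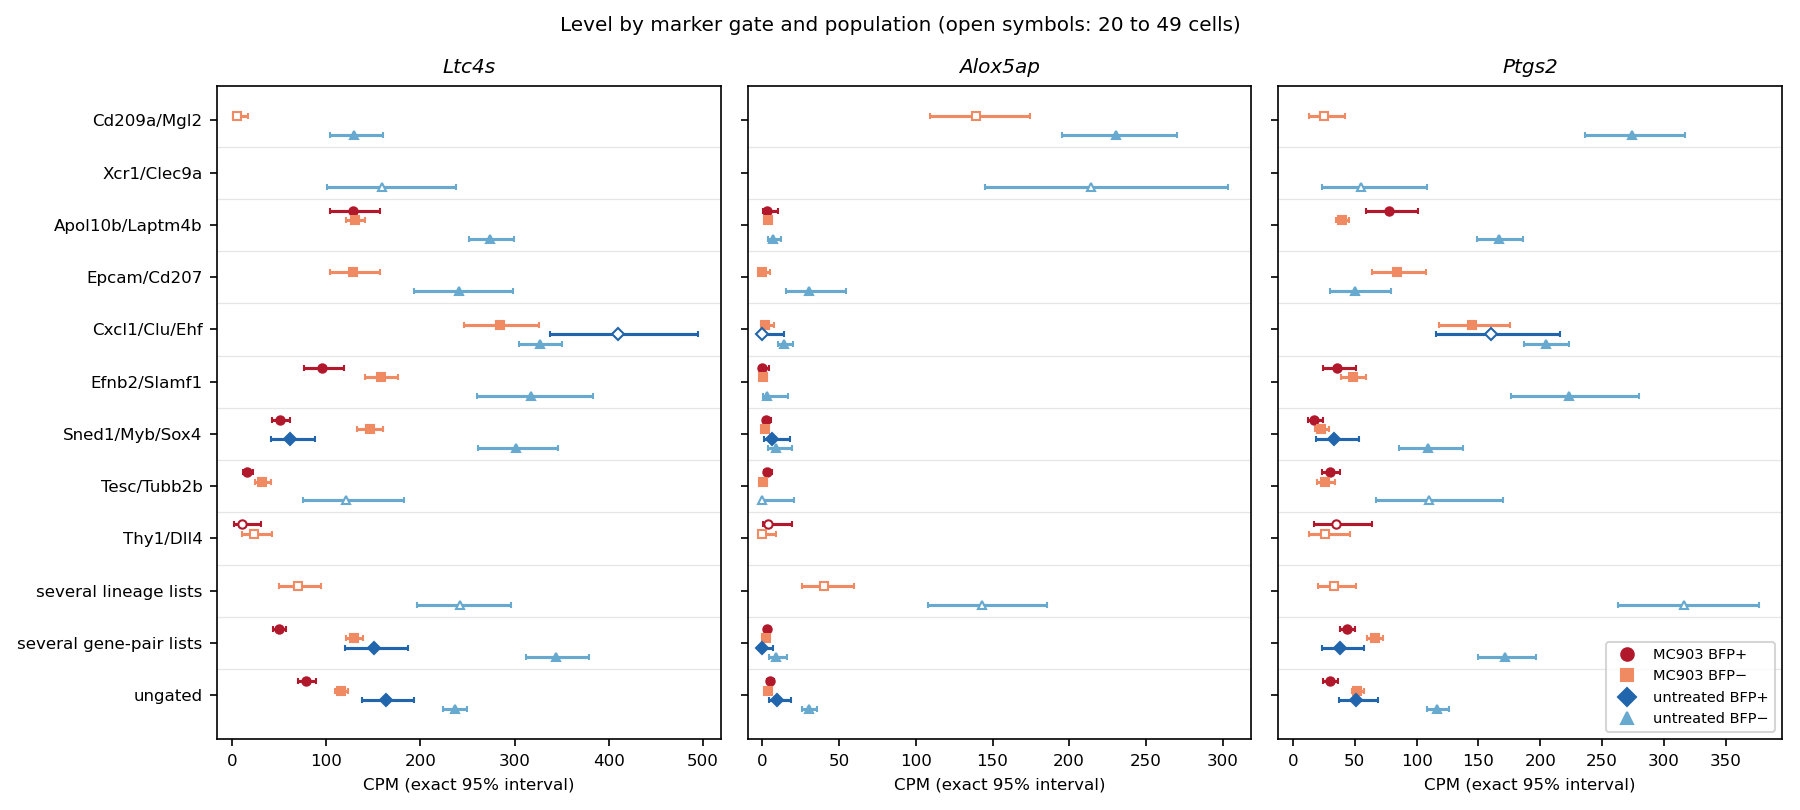
Level in CPM (x axis, a separate scale per panel) of Ltc4s, Alox5ap and Ptgs2 in each marker gate (rows) and population (colour and symbol), with exact 95% counting intervals. Open symbols are gates of 20 to 49 cells, and gates under 20 cells are not drawn. Alox5ap stands out in the Cd209a/Mgl2 (231 CPM in untreated BFP− DCs) and Xcr1/Clec9a gates. Ltc4s stands out in the Cxcl1/Clu/Ehf gate of MC903 BFP− and untreated BFP+ DCs, but not of untreated BFP− DCs.

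Within DC types, counting marker gates with at least 50 cells on both sides, Ltc4s was lower in BFP+ than in BFP− DCs in 4 of 4 gates after MC903 (log2 ratios −1.51 to −0.02, interval below 0 in 3) and in the 1 gate without treatment, Sned1/Myb/Sox4. It was lower after MC903 than without treatment in 5 of 5 gates of BFP− DCs (−1.07 to −0.20, interval below 0 in 4). In BFP+ DCs the 1 gate, Sned1/Myb/Sox4, had a log2 ratio of −0.27 whose interval held 0 (−0.86 to 0.37). Ungated DCs and DCs of several gene-pair lists were lower in each of the 4 contrasts, with intervals below 0. The gate with the smallest reporter difference after MC903 was Apol10b/Laptm4b, with 128 CPM in BFP+ (57 cells) and 131 CPM in BFP− DCs (439 cells), a log2 ratio of −0.02 (−0.35 to 0.29). In the untreated Sned1/Myb/Sox4 gate Ltc4s had 61.6 CPM in BFP+ (54 cells) against 301.1 CPM in BFP− DCs (148 cells).

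Ptgs2 was also high in the Cxcl1/Clu/Ehf gate, at 145, 160.3 and 204 CPM in the MC903 BFP−, untreated BFP+ and untreated BFP− populations, and exceeded the other DCs by log2 ratios of 1.62 (1.32 to 1.91), 2.04 (1.48 to 2.57) and 0.48 (0.34 to 0.63). In untreated BFP− DCs Ptgs2 was no lower in the Efnb2/Slamf1 gate, at 223 CPM (73 cells). Unlike Ltc4s it was raised in the Cd209a/Mgl2 gate of untreated BFP− DCs, at 274 CPM against 151 CPM (0.87, 0.64 to 1.08), and by number of the 4 markers of that list at 139, 212, 475 and 288 CPM with 0, 1, 2 and 3 or more. In MC903 BFP− DCs the same gate had 24.8 CPM (33 cells). Ptgs2 was low in the Sned1/Myb/Sox4 gate, at 17.4, 22.9, 32.9 and 109 CPM in MC903 BFP+, MC903 BFP−, untreated BFP+ and untreated BFP− DCs, although in untreated BFP− DCs a mean over cells gave no difference from the other DCs (log2 ratio 0.0030). In the Epcam/Cd207 gate it had 83.8 CPM in MC903 BFP− (81 cells) and 49.9 CPM in untreated BFP− DCs (57 cells), a log2 ratio of 0.75 (−0.03 to 1.59), where the whole population had −1.66. That gate leaves out barcodes of several lineage lists: among all DCs with 2 markers of its list, Ptgs2 was at 46.6 CPM in MC903 BFP− (92 cells) and 264 CPM in untreated BFP− DCs (71 cells), the opposite direction.

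Ptgs2 in marker gates of at least 50 cells on both sides was not lower throughout in BFP+ than in BFP− DCs after MC903: 2 of 4 gates had the lower point value and none an interval below 0. In the Apol10b/Laptm4b gate it was higher, 77.9 CPM in BFP+ against 39.8 CPM in BFP− (0.97, 0.52 to 1.40), while ungated DCs (−0.81, −1.13 to −0.49) and DCs of several gene-pair lists (−0.60, −0.85 to −0.35) were lower. Without treatment the 1 gate, Sned1/Myb/Sox4, was lower in BFP+ DCs (−1.73, −2.61 to −0.94). MC903 BFP− DCs had the lower level in 4 of 5 gates, each with an interval below 0, and MC903 BFP+ DCs had −0.92 (−1.80 to 0.03) in Sned1/Myb/Sox4. Of the 4, the Apol10b/Laptm4b gate had 39.8 against 167 CPM, but a single untreated barcode held 128 of its 314 UMIs. BFP− DCs with 3 or more markers of that list had 33.5 CPM of Ptgs2 after MC903 and 35.4 CPM without treatment, and those with 2 markers 42.9 and 209 CPM. For Alox5ap, whose pooled ratio after MC903 was −0.62, of 4 marker gates and 2 other sets, 4 had a higher and 1 a lower point value in BFP+ DCs, and no interval lay clear of 0. Between MC903 and untreated BFP− DCs, Alox5ap was lower after MC903 in 4 of 5 marker gates (interval below 0 in 2 of the 4), and in the Epcam/Cd207 gate it had 0 UMIs in 81 MC903 cells against 11 UMIs in 57 untreated cells. In those 4 gates the untreated level was 2.94 to 14.1 CPM, no higher than in untreated T-marker (16.9 CPM) or B-marker barcodes (15.0 CPM). Lymphocyte barcodes also had less Alox5ap after MC903 (1.03 and 4.23 CPM), and the part of background in the gate ratios was not tested. Ungated BFP− DCs had 3.65 CPM after MC903 and 30.5 CPM without treatment (−3.06, −3.65 to −2.51), and the Cd209a/Mgl2 gate 139 CPM (33 cells) and 231 CPM (184 cells), a log2 ratio of −0.73 (−1.15 to −0.32). Differences between gates in these contrasts were not tested.

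Each population was also split into 3 equal bins of cells by the summed share of Ccr7 and Fscn1, 2 genes that rise as DCs mature and migrate. From the lowest to the highest bin, Ptgs2 was at 22.7, 35.9 and 47.0 CPM in MC903 BFP+, 25.1, 41.0 and 82.4 CPM in MC903 BFP−, 5.70, 68.6 and 76.9 CPM in untreated BFP+ and 136, 104 and 230 CPM in untreated BFP− DCs. The highest bin exceeded the lowest in each population, and in untreated BFP− DCs the middle bin was the lowest. Alox5ap ran the other way, with 7.77, 2.55 and 2.49 CPM in MC903 BFP+, 16.8, 1.68 and 1.62 CPM in MC903 BFP−, 30.8, 2.25 and 2.14 CPM in untreated BFP+ and 81.4, 14.4 and 10.4 CPM in untreated BFP− DCs. Ltc4s had no common order of bins, and lay between 46.1 and 75.6 CPM in MC903 BFP+, between 114 and 126 CPM in MC903 BFP−, between 162 and 171 CPM in untreated BFP+ and between 235 and 296 CPM in untreated BFP− DCs.

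**Figure D4:**
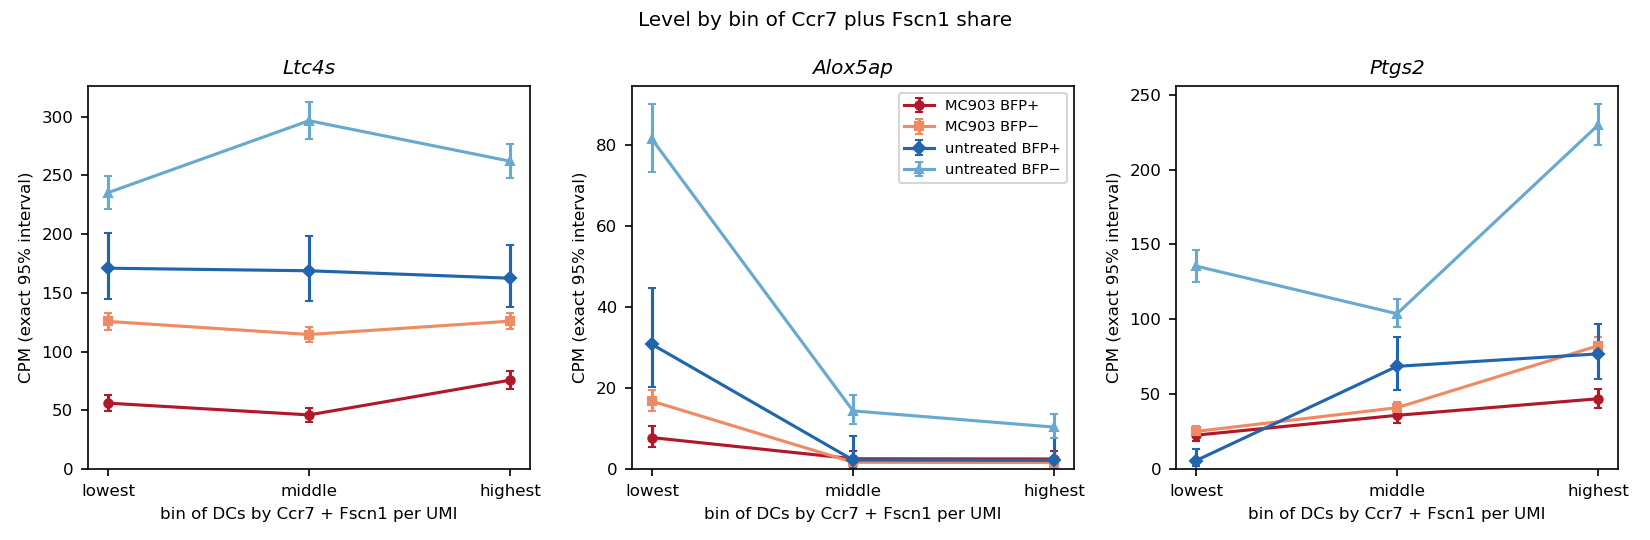
Level in CPM (y axis, a separate scale per panel) of Ltc4s, Alox5ap and Ptgs2 in 3 equal bins of each DC population by Ccr7 plus Fscn1 UMIs per barcode UMI (x axis, lowest to highest), with exact 95% counting intervals. Alox5ap is highest in the lowest bin of each population (81.4 CPM in untreated BFP− DCs), and Ptgs2 is higher in the highest bin than in the lowest.

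Ptgs2 UMIs gathered in few cells. The 1% of DCs with most Ptgs2 UMIs held 30.4%, 36.5%, 23.2% and 41.5% of them in MC903 BFP+, MC903 BFP−, untreated BFP+ and untreated BFP− DCs, and 50% of the UMIs lay in 35, 54, 14 and 63 cells. A single barcode of the Apol10b/Laptm4b gate held 128 of the 2200 untreated BFP− UMIs. For Ltc4s 50% of the UMIs lay in 70, 270, 30 and 350 cells. Alox5ap UMIs gathered in few cells too: the top 1% of DCs held 62.3%, 67.5%, 54.8% and 38.9% of them. Its 50% lay in 7, 14, 4 and 62 cells. The Ptgs2 level of a small gate, and the Alox5ap level of a gate or a whole population, can therefore turn on a few cells. The counting intervals do not cover this. Among untreated BFP− DCs, 34.5% of those with a Ptgs2 UMI also had Ltc4s (30.1 to 39.0), against 37.9% of those without (36.0 to 39.9), at 2000 UMIs.

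**Figure D5:**
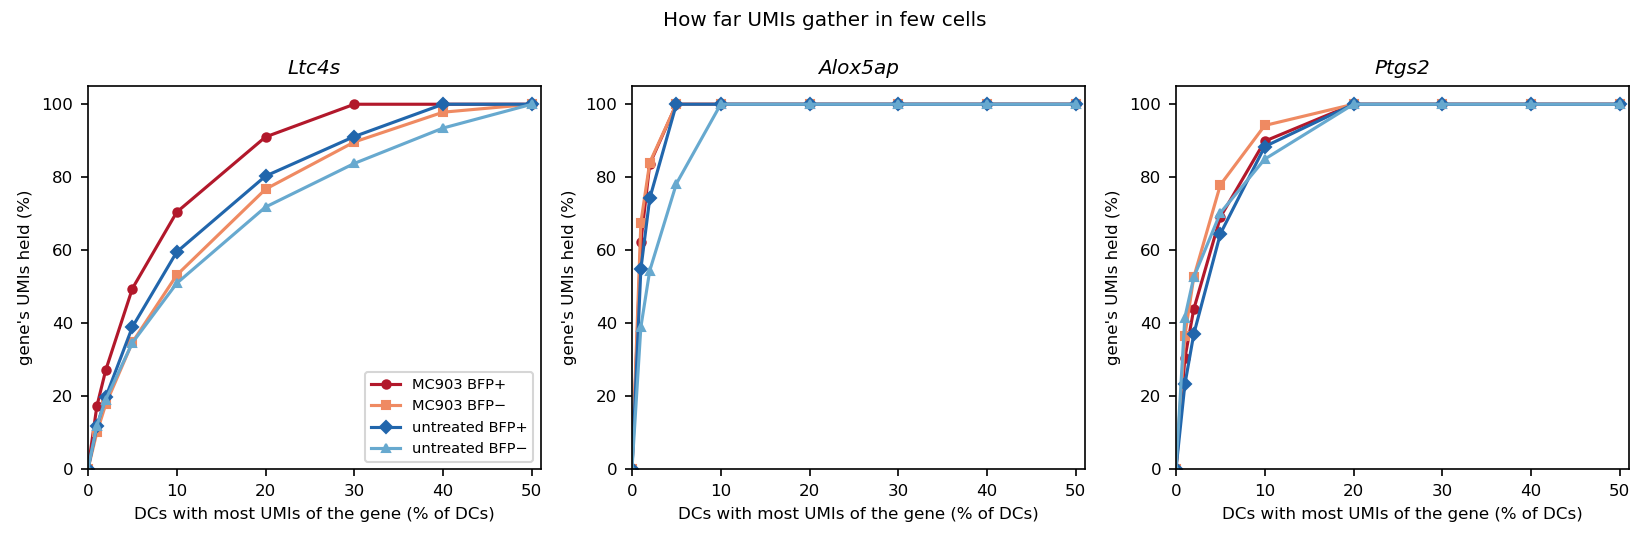
Share of a gene's UMIs (y axis, %) held by the DCs with most of them (x axis, % of DCs of the population) for Ltc4s, Alox5ap and Ptgs2 in the 4 populations. The Ltc4s curves rise more slowly than those of the other 2, and the top 1% of untreated BFP− DCs holds 41.5% of the Ptgs2 UMIs.

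Of 41 other eicosanoid genes, 4 had at least 20 CPM in the MC903 reporter contrast and 5 in each other contrast, while the other 36 or 37 stayed under 20 CPM in both populations compared. Cotl1, an actin-binding protein known to bind 5-lipoxygenase, was higher after MC903, with 154 CPM against 87.3 CPM among BFP+ cells (a log2 ratio of 0.82, 0.62 to 1.02) and 156 against 88.6 CPM in BFP− DCs (again 0.82, with 0.73 to 0.91). It was the 1 list gene at least 1.5-fold higher in each treatment contrast, against 3.43% (BFP+) and 4.88% (BFP−) of all genes. None was 1.5-fold lower, against 4.59% and 5.34%. In the reporter contrasts none passed in either direction, against 1.36% higher and 1.78% lower after MC903 and 3.33% and 4.2% without treatment. With 4 or 5 genes, none past 1.5-fold is near those shares. Lta4h, which makes leukotriene B4, had 16.9, 18.1, 22.2 and 26.2 CPM in MC903 BFP+, MC903 BFP−, untreated BFP+ and untreated BFP− DCs. Abcc1, the exporter of leukotriene C4, had 46.1, 49.3, 43.3 and 50.2 CPM, Ptges3, a cochaperone also described as a prostaglandin E synthase, 103, 119, 118 and 149.8 CPM, and Ptger4, a prostaglandin E2 receptor, 229, 199.5, 224 and 197 CPM. Ptgs1, the constitutive cyclooxygenase, named after its values were seen, had 0, 4, 0 and 9 UMIs. The medians over the 4 or 5 list genes past 20 CPM were −0.06, −0.21, 0.03 and −0.02 in the MC903 reporter, untreated reporter, BFP+ treatment and BFP− treatment contrasts, against −0.02, −0.01, −0.04 and −0.03 over all genes.

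Over 25 summed profiles (gate, ungated or mixed set by population, at least 50 cells) the genes most like each member were ranked among 6325 by Pearson's r of log2(CPM + 10), as a description, since profiles share libraries, depth and pools. Ltc4s was most like Synpo2 (0.91), Mycbp2 (0.90) and Zfp366 (0.89), with r of 0.85 to 0.90 within the 14 MC903 profiles and 0.76 to 0.89 within the 11 untreated ones. Alox5ap was most like Ms4a6c, Plaur and Plbd1 (each 0.97, and 0.97 to 0.98 within the untreated profiles), but within the MC903 profiles r was 0.43, −0.0032 and 0.64. A single untreated profile, the Cd209a/Mgl2 gate of BFP− DCs, was at 231 CPM of Alox5ap, with the others at or under 30.5 CPM. Its part in these r values was not tested. Ptgs2 was most like Pvr, Tnfaip2 and Nup62 (each 0.85, with 0.69 to 0.87 within the MC903 and 0.70 to 0.93 within the untreated profiles). Among the members, r was 0.72 for Ltc4s and Ptgs2, 0.51 for Alox5ap and Ptgs2 and 0.23 for Ltc4s and Alox5ap. Within the MC903 profiles these were 0.65, −0.17 and −0.17, and within the untreated ones 0.58, 0.40 and −0.16.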

How the data were processed

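Both deposited matrices hold UMI counts of genes and hashtags in each barcode. Per the file headers they were written by Cell Ranger 3.1.0, and the submitters' processing notes name GRCm38. The libraries were made with a 3′ kit. Ltc4s and Alox5ap overlap other models on the opposite strand, and Ptges overlaps 1 on its own. Counting at 3′ ends does not allow levels to be compared between genes.

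The barcode filter asked for 500 genes or more and for mitochondrial UMIs of 10% or less. A barcode belonged to the hashtag holding at least 80% of at least 10 hashtag counts, since HTODemux (Seurat 5.3.0) left most untreated barcodes without a label. Mixed-hashtag barcodes and those with 2 or more markers of another lineage were left out, no doublet caller was run, and doublets within 1 hashtag remain. A barcode entered a type gate with at least 2 different markers of 1 list. T-marker and B-marker barcodes had at least 3 markers of their list and no UMI of Fscn1 or Cacnb3. DC counts were summed per population and scaled to CPM. Each population being 1 pool, no test was made. Log2 ratios have exact conditional intervals for 2 Poisson counts, and shares exact Clopper-Pearson intervals. A floor is 3 counts. The interval code was tested on simulated data. Background shares count genes at least 1.5-fold apart with 20 CPM in the higher population.

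The text names the 5 members, up to 4 list genes per contrast with the largest ratio, and the 3 genes most like each member. The members and lists were chosen with earlier results of these data known, and the Ccr7 and Fscn1 bins, marker-number and UMI-concentration descriptions after the values were seen. Alternatives were another hashtag call, cell filters, depth, cell weighting, scaling (edgeR 4.0.16 TMM, median of ratios), minimum CPM and gate rule. Python 3.11.15, numpy 2.4.6, scipy 1.17.1, pandas 2.3.3 and R 4.3.3 were used.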

Additional observations from a re-analysis of the deposited data

How the results depend on the processing

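Under 10 alternatives for each of the 12 single-member ratios, all 120 kept their sign, 94 within the counting interval. The ranges were −2.54 to −0.78 for Alox5ap in BFP+ DCs, MC903 over untreated, −2.19 to −0.76 for Alox5ap without treatment, BFP+ over BFP−, and −1.12 to −0.30 for Ptgs2 in BFP+ DCs, MC903 over untreated. The count of members 1.5-fold lower became 2 after MC903 (BFP+ over BFP−) with HTODemux singlets and with thinning, and 2 for MC903 over untreated in BFP+ DCs with HTODemux, without the 5% deepest barcodes, with thinning and with per-cell means. Under the same 4 alternatives it fell to 2 without treatment (BFP+ over BFP−), against 3. The cause was not tested. Of all genes, 97 were 1.5-fold lower after MC903 (BFP+ over BFP−) with HTODemux and 143 with thinning, against 85 of 4781. For MC903 over untreated in BFP+ DCs, the 4 alternatives in that order gave 217, 357, 318 and 244, against 225, among 4900 to 4903 genes. Without treatment (BFP+ over BFP−) they gave 141, 186, 350 and 209, against 211, among 5016 to 5019 genes.

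Gated after thinning to 2000 UMIs, the log2 ratio to other DCs was 1.32 for Ptgs2 in the Cd209a/Mgl2 gate (untreated BFP−), 1.60 for Ltc4s and 2.02 for Ptgs2 in the Cxcl1/Clu/Ehf gate (MC903 BFP−), 0.83 for Ptgs2 there (untreated BFP−), −2.68 and −3.42 for Ltc4s in the Tesc/Tubb2b gate (MC903 BFP+ and BFP−), and −1.88 and −0.61 for Ptgs2 in the Sned1/Myb/Sox4 gate (MC903 BFP+ and BFP−). With per-cell means Ptgs2 had 0.33 in the Cd209a/Mgl2, 0.70 in the Cxcl1/Clu/Ehf, 0.0030 in the Sned1/Myb/Sox4 and −0.93 in the Epcam/Cd207 gate (untreated BFP−), the last −2.94 with HTODemux singlets. With 3 or more markers Ltc4s had −1.65 in the Cd209a/Mgl2 gate.

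Scaling moved the median of all genes from −0.03 to 0.09 at most (MC903 over untreated, BFP−, median of ratios). With median-of-ratios scaling 65.1% of the genes 1.5-fold apart were higher after MC903 in BFP+ DCs, 65.5% in BFP− DCs, and 55.9% were higher in BFP+ than in BFP− DCs without treatment, against 44.2%. Shares at 1000 UMIs were lower than at 2000 UMIs for Ltc4s, Alox5ap and Ptgs2 in the 4 populations.

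No paired analysis was possible because each population is 1 pool and the labels carry no replicate numbers. Depth limits Alox5 and Ptges, whose counts allow no direction.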

Other observations

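Kept DCs without a clear hashtag belong to no population. The 108 of the MC903 capture had 87.4 CPM of Ltc4s, 4.02 CPM of Alox5ap and 55.8 CPM of Ptgs2, and the 1249 of the untreated capture had 213, 21.5 and 100.1 CPM. Alox5 had 1 UMI in the MC903 set and none in the untreated one, where the exact upper bound is 1.03 CPM (the floor of 3 counts is 0.839 CPM).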
